A study of Equus caballus with 6 samples.

Results

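The comparison is between the intermediate and the outer layer of the interzone, the band of cells that marks the place of a future synovial joint, in the hindlimb of the horse fetus at gestational day 40. The 2 layers are 2 of the 6 samples of the series and were chosen by their titles alone, with 1 array for each layer. The outer layer lies against the cartilage of the long bone templates and the intermediate layer lies between the outer layers. The third fetal array holds transient embryonic cartilage of the same stage, the template cartilage that is later replaced by bone, and is used here only to set a level beside those of the layers. The other 3 arrays hold the superficial, middle and deep zone of articular cartilage of the stifle of adult horses of 15 years. No group carried a treatment or a genetic change in the labels. The sources used here do not give how many fetuses were used or whether both layers came from the same one.

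The interzone forms when cells within the cartilage condensation of a limb stop making cartilage matrix and take on a flattened, densely packed shape. GDF5, a growth factor of the BMP family, marks this tissue, and cells with a history of its expression later line the joint. Balance between BMP, WNT, FGF and hedgehog signals is known to set the border between the cells that stay joint-forming and those that enter the cartilage of the templates.

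Each layer was cut from frozen sections of 10 µm by laser capture microdissection, and its RNA was amplified by PCR from cDNA before labelling with 1 dye. A spot was used as measured when the scanner software marked it well above background, which held for 16109 of 43603 probes (36.9%) in the intermediate and 18872 (43.3%) in the outer layer. All levels below are log2 signals of 1 probe minus the array's 75th percentile, taken over those 1765 probes that stood well above background on every one of the 6 arrays, so that 0 stands for that percentile and 1 unit for a 2-fold change. That percentile was 2400 scanner units in the intermediate and 4390 in the outer layer. No spot was saturated. Each layer has 1 array, so the differences stand without replicates and without p-values. The error printed with a difference is the scanner's own spot error, and the spread between probes of a gene is given where there are several. Probes of a gene can cover nearly the same bases, as those of CYTL1, PRG4 and MATN1 do. A narrow spread between such probes is not agreement of separate measurements. Neither holds the variation between animals, dissections or amplifications, which may be larger. In a dissected tissue, fewer cells of a type and less RNA per cell cannot be told apart.

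The probes of the 4 genes used as markers of the layers, and of the other 3 genes with the largest measured differences towards the intermediate layer, are shown because these differences rest on 1 or few probes. Positions are those in the transcript as the files' probe annotation gives it, and each probe has 60 bases. Capitals in the CYTL1 probe mark the 56 bases that all 5 probes of this gene share.
GDF5, 1380 to 1439: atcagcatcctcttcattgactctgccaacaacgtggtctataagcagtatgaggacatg
CALB2, 743 to 802: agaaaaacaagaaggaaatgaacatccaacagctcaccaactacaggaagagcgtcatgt
FGF10, 508 to 567: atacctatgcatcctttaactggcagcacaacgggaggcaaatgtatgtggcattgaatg
FGF10, 587 to 646: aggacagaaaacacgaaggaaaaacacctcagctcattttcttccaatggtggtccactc
CYTL1, 276 to 335: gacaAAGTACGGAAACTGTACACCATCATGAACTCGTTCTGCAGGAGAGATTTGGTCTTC
PJA1, 612 to 671: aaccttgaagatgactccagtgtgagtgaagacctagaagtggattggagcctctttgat
EGLN2, 328 to 387: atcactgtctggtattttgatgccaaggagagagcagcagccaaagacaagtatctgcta
CDH10, 2361 to 2420: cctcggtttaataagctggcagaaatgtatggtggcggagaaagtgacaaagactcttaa

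Both layers carried the genes of joint-forming tissue. GDF5 had a level of -1.90 in the intermediate and -3.38 in the outer layer and was not well above background in the cartilage. It was 2.78-fold higher in the intermediate layer, a difference of 1.48 ± 0.20 (spot error, 1 probe). PRG4, which encodes the joint lubricant lubricin, had levels of 3.86 in the intermediate layer, 3.37 in the outer layer and -5.78 in the cartilage. The 2 layers differed by 0.49 ± 0.20 over the reported probe, with 5 probes between 0.29 and 0.59, and the sign turned under 1 of 9 alternatives, normexp background correction with the differences centred on their median. OSR2, a transcription factor of joint-forming cells, had levels of 0.12, -0.74 and -3.69 in the same order, and its 3 probes gave differences between 0.81 and 0.86. OSR1, its relative, had levels of -4.35, -4.99 and -8.70. SFRP2, a secreted WNT modulator, had 3.44, 2.58 and -0.22. ERG, a transcription factor of articular progenitors, had -2.27, -2.12 and -3.21, and its 2 probes disagreed on which layer was higher. Of 28 joint-forming genes on the array 18 were measured in both layers and 12 of these lay within 2-fold, with a median of 0.35 that fell on either side of the median of all genes across the alternatives. The interzone label of both layers thus stands beside measured joint genes in each.

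CALB2, FGF10 and CYTL1 separated the layers far more than GDF5 did. CALB2, which encodes the calcium-binding protein calretinin, had a level of -2.18 in the intermediate layer, -8.74 in the outer layer and -4.13 in the cartilage. Its single probe gave a 93.8-fold difference, 6.55 ± 0.34 on the log2 scale. Its outer level lay close to -8.94, the lowest level well above background on that array. FGF10, a mesenchymal growth factor, had -1.64 in the intermediate layer and -6.73 in the outer layer and was not well above background in the cartilage. Its 2 probes, which share no base, were higher in the intermediate layer by 34.1-fold and 24.7-fold. CYTL1, a secreted protein known from cartilage, went the other way, with -6.34 in the intermediate layer, -0.69 in the outer layer and -0.56 in the cartilage. It was 50.4-fold higher in the outer layer, and its 5 probes gave differences between -6.38 and -5.65. These 5 probes cover nearly the same bases and do not count as separate measurements. Over the 9 alternatives the differences ran from 3.20 to 6.68 for CALB2, 3.32 to 5.25 for FGF10 and -5.99 to -3.36 for CYTL1. In the adult zones, GDF5, CALB2 and FGF10 were not well above background on any array, and CYTL1 had levels of -2.76 in the superficial and 2.84 in the deep zone.

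**Figure D1:**
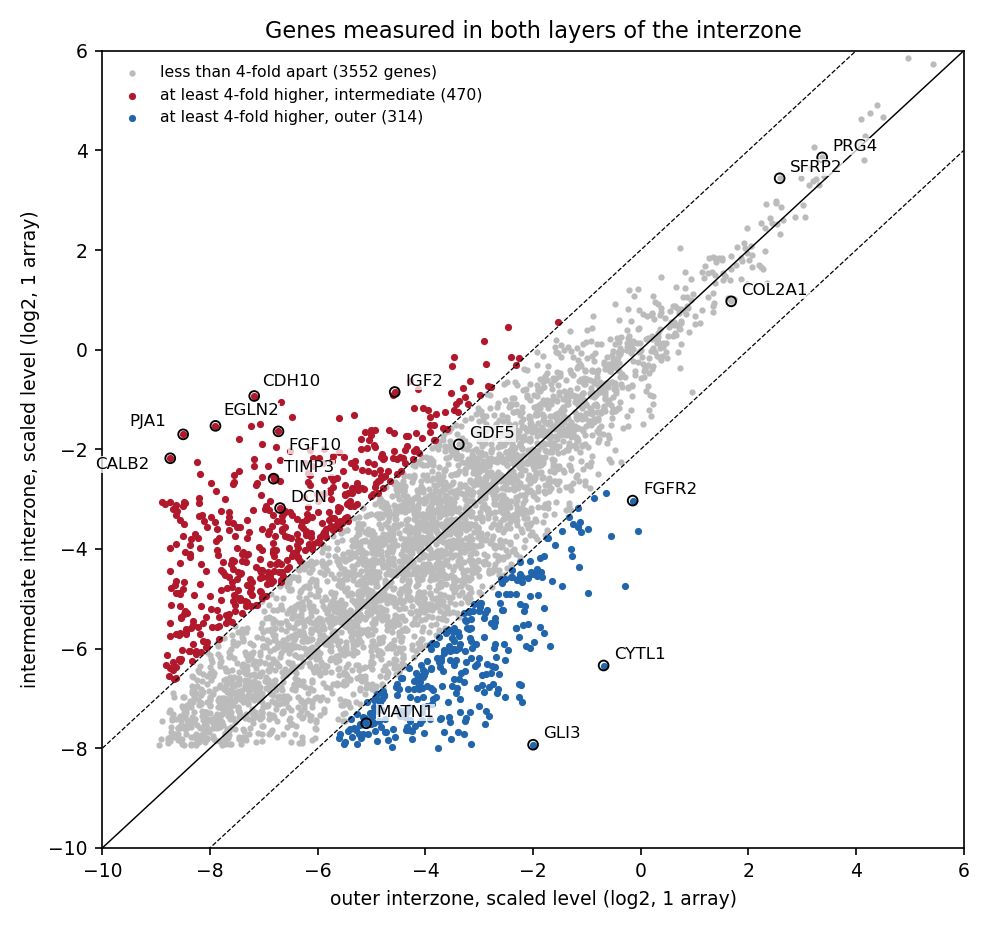
Scaled log2 level of each of the 4336 genes measured in both layers, outer interzone on the x axis and intermediate interzone on the y axis, 1 array each. Dashed lines mark 4-fold: 470 genes lie above the upper line and 314 below the lower one, and most of them lie at low levels in 1 of the layers. CALB2, PJA1, EGLN2 and CDH10 lie far above and CYTL1 and GLI3 far below the diagonal, while PRG4 lies near it.

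Of 13743 genes on the array, 4336 were measured in both layers. Of these, 2459 (56.7%) lay within 2-fold, 470 (10.8%) passed 4-fold towards the intermediate layer and 314 (7.24%) towards the outer layer, 18.1% in all. At 2-fold, 25.6% were higher in the intermediate and 17.7% in the outer layer. The median difference over all 4336 genes was 0.21, and list medians below are read against it. Other percentiles, centring on the median and the authors' values shift all differences alike and cannot change that reading. Quantile normalization, normexp and the mean over probes of a gene can change it, and only these bear on the side a list lies on. A further 828 genes (6.02% of those on the array) were well above background in the intermediate layer only and 1607 (11.7%) in the outer layer only. For such genes only a bound can be given, written "at least N-fold", which sets the bright layer against the lowest signal that was well above background on the other array or the probe's own signal there, whichever was higher. The split between the directions depends on the scaling. It was 349 against 425 genes when the 50th percentile was used, 352 against 17 after normexp, and 94 against 119 after normexp with the differences centred on their median. Genes that were at least 4-fold apart under the main setting and all 9 alternatives numbered 93 in the intermediate and 17 in the outer direction. The 3 genes CALB2, FGF10 and CYTL1 were among them.

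Genes of cartilage matrix lay towards the outer layer. Of 24 on the array, 15 were measured in both layers. Of these 4 were at least 4-fold higher in the outer layer and none in the intermediate layer, against 7.24% and 10.8% of all genes measured. CYTL1, already chosen as a marker, is among these 4. Of the 24 on the array, 4 more were above background in the outer layer only and none in the intermediate layer only. Over all genes on the array these shares were 11.7% and 6.02%. The list median was -0.71, which is 0.92 below the median of all genes, and it stayed below under every alternative that could change this. MATN1, a cartilage matrix adaptor, had levels of -7.50 in the intermediate, -5.10 in the outer layer and 1.16 in the cartilage. Its 5 probes were lower in the intermediate layer, 5.26-fold by the reported probe, although the sign turned after normexp. COL27A1, a fibrillar collagen of cartilage, had -3.60, -0.98 and 1.11 and was 6.13-fold higher in the outer layer. ACAN, which encodes the main cartilage proteoglycan aggrecan, had -5.16, -2.99 and 1.87. Its reported probe was 4.48-fold higher in the outer layer, while the second probe differed by only -0.04.

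The cartilage collagens differed in size and direction between the layers. COL2A1, the main cartilage collagen, had levels of 0.97 in the intermediate layer, 1.68 in the outer layer and 5.42 in the cartilage. Its 5 measured probes, which start at bases 4486 to 4490 and so overlap, gave differences between -0.80 and -0.65. The remaining COL2A1 probe, at base 216, was above background in the outer layer only. COL9A2, a chain of the collagen that coats its fibrils, had 2.67, 3.06 and 5.35. COL9A1, another chain of the same collagen, went the other way with -5.20, -6.66 and -1.49, which is 2.75-fold higher in the intermediate layer. So both layers carried these 3 transcripts at lower levels than the cartilage array did. COL11A1 had -0.93, 0.23 and 3.13, and its 5 probes disagreed in direction, from -1.40 to 1.24. EPYC, a small proteoglycan of growth cartilage, was at least 16.7-fold higher in the outer layer, where its level was -3.96 against 4.17 in the cartilage. COL11A2 was at least 10.5-fold and MATN3 at least 6.09-fold higher in the outer layer. SOX9, the transcription factor that drives cartilage genes, had -2.78, -0.95 and 0.56 and was 3.55-fold higher in the outer layer, a difference of -1.83 ± 0.20. This is 1 of its 3 probes, for a second was above background in the outer layer only, at -2.75, and the third in neither layer. MEF2C, a transcription factor of hypertrophic chondrocytes, was at least 9.41-fold higher in the outer layer, at a level of -4.79, and was not well above background in the cartilage. Of the 12 hypertrophy and bone genes on the array 8 were above background in neither layer.

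**Figure D2:**
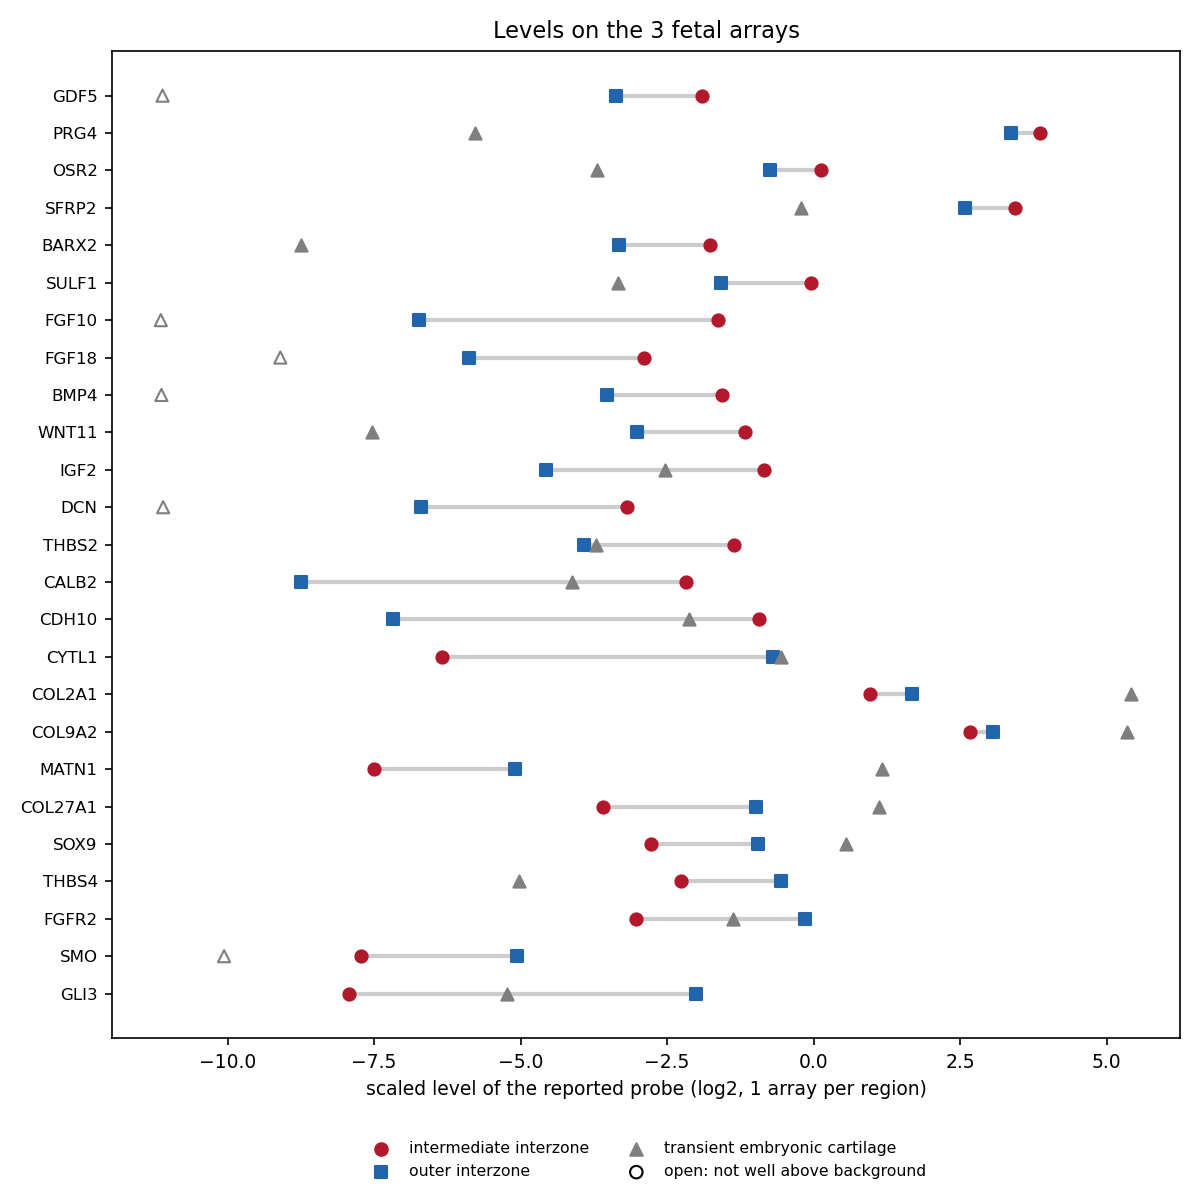
Scaled log2 level of the reported probe of selected genes on the 3 fetal arrays, with circles for the intermediate layer, squares for the outer layer and triangles for transient embryonic cartilage. Open symbols were not well above background. GDF5, FGF10, FGF18, BMP4, DCN and SMO have open symbols in the cartilage, and COL2A1, COL9A2, MATN1, COL27A1 and SOX9 have their highest level there.

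Hedgehog pathway genes also lay towards the outer layer. In growth cartilage, Indian hedgehog acts through the receptor PTCH1 and the transducer SMO on the GLI transcription factors. Of 12 genes on the array 6 were measured in both layers, and 2 of them were at least 4-fold higher in the outer layer, against 7.24% of all genes. The list median was -1.23, which is 1.44 below that of all genes, and it lay between 0.49 and 1.44 below over the alternatives, although its own sign turned under 1 of the 9. GLI3, the member that mainly represses targets when the signal is absent, had levels of -7.93 in the intermediate, -2.00 in the outer layer and -5.23 in the cartilage. Its single probe was 60.9-fold higher in the outer layer, -5.93 ± 0.34. The intermediate level lay close to -8.02, the lowest level well above background on that array. Under the alternative that shrank it most, the GLI3 difference was -2.39. SMO had -7.72 in the intermediate and -5.07 in the outer layer and was 6.28-fold higher in the outer layer, and PTCH1, with -6.60 and -5.27, was 2.52-fold higher there. Both SMO and PTCH1 changed sign after normexp, whereas GLI3 stayed at least 4-fold higher in the outer layer under all 9 alternatives. HHIP, a secreted inhibitor that hedgehog signalling induces, was at least 6.09-fold higher in the outer layer. The co-receptors BOC (-1.37 and -1.43) and CDON (-3.71 and -3.68) had nearly the same level in both layers. GLI1, a hedgehog target, cannot be placed, because its probes disagreed. The probe at base 1460 was 1.12 lower in the intermediate layer, the probe at base 3339 was 6.25 higher there, and the other 5 probes were above background in the outer layer only.

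The FGF ligands measured in both layers lay towards the intermediate layer and the receptor FGFR2 towards the outer layer. Of 13 FGF ligand genes on the array 3 were measured in both layers, and all 3 passed 2-fold towards the intermediate layer, against 25.6% of all genes, with FGF10 already chosen as a marker. FGF16 was above background in the intermediate layer only, with a bound of 6.38-fold, and FGF2 in the outer layer only, with a bound of 2.25-fold. Besides FGF10 these were FGF18, a ligand known from joint and perichondrium, and FGF1. FGF18 had levels of -2.89 and -5.88, a 7.95-fold difference of 2.99 ± 0.21, and was not well above background in the cartilage. FGF1 had -6.97 and -8.30, a 2.51-fold difference. FGFR2 had levels of -3.03 in the intermediate layer, -0.15 in the outer layer and -1.38 in the cartilage. Its reported probe was 7.37-fold higher in the outer layer and a second one gave -3.15, but these were 2 of 12 probes for the gene, and the others were not measured in both layers. FGFR1 had -2.65 and -1.71, FGFR3 had -3.05 and -2.50, and their differences stayed under 2-fold. SPRY1, a feedback inhibitor of the receptors, was 3.32-fold higher in the intermediate layer by 1 probe and gave 2.00 by the other, on the log2 scale. SPRED2, an inhibitor of the same kind, was at least 14.9-fold higher in the outer layer.

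Among BMP and TGF-beta ligands, 4 of 7 measured passed 2-fold towards the intermediate layer, 1 towards the outer layer, and none reached 4-fold, where 25.6% and 17.7% of all genes passed 2-fold. GDF5, already chosen as a marker, is among the 4, and GDF10 was above background in the outer layer only, with a bound of 8.93-fold. The list median was 1.25 against 0.21 over all genes, and it stayed above that of all genes under every alternative that could change this. BMP4 had levels of -1.57 in the intermediate and -3.53 in the outer layer and was not well above background in the cartilage, and its 9 probes gave differences between 1.84 and 2.00. GDF7 and BMP5, both BMP family ligands, had levels of -4.23 and -4.20 in the intermediate layer, where they were higher by 2.38-fold and 2.37-fold. INHBA, a chain of activin, had -4.90 and -3.73 and was 2.25-fold higher in the outer layer by the reported one of 4 probes. TGFB2, with -0.43 and 0.06, differed by less than 2-fold.

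The median of the measured inhibitors of the same signals lay towards the intermediate layer too, at 0.79 against 0.21 over all genes. Of 8 measured, 3 were at least 4-fold higher there and none in the outer layer, against 10.8% and 7.24% of all genes. Another 4 lay within 2-fold, among them LTBP1, with 5 probes between -0.42 and -0.19. Of 18 on the array, 1 was above background in the outer layer only and none in the intermediate layer only. Over all genes on the array these shares were 11.7% and 6.02%. SMAD7, an intracellular inhibitor of both branches, had -5.20 and -7.98, with its 2 probes at 2.78 and 4.89. SMAD6, the inhibitor of the BMP branch, had -2.89 and -4.97, a 4.23-fold difference. FSTL1, a secreted binder of BMPs, had -3.97 and -6.11 and was 4.41-fold higher in the intermediate layer. FST, or follistatin, was 2.48-fold higher in the intermediate layer and was not well above background in the cartilage. NOG and CHRD, secreted BMP inhibitors, were not well above background in either layer. Of the target genes ID3 had -2.28 and -5.39, an 8.61-fold difference, while ID1, ID2 and ID4 differed by less than 2-fold between the layers. Receptors were poorly measured: 3 of 13 receptor and SMAD genes could be compared. Another 5 were above background in the outer layer only, against 11.7% of all genes on the array. Among these, TGFBR2 was at least 7.40-fold and BMPR1B at least 3.06-fold higher there.

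The WNT ligands, agonists and receptors measured in both layers lay mostly towards the intermediate layer. Of 29 on the array 8 were measured in both, and 5 of these passed 2-fold towards the intermediate layer and none towards the outer layer, against 25.6% and 17.7% of all genes. Seen in the intermediate layer only were 2 members and in the outer layer only 2, against 6.02% and 11.7% of all genes on the array. LRP6, a co-receptor, and LGR5 were seen in the intermediate layer at bounds of 4.37-fold and 3.70-fold, and the agonist RSPO2 in the outer layer at 3.71-fold. LRP5, a co-receptor of canonical WNT signals, had -4.11 and -7.41, a 9.82-fold difference of 3.30 ± 0.24. WNT7B had -3.91 and -6.17, 4.79-fold, and WNT11 had -1.17 and -3.02, 3.60-fold. FZD2, a receptor, was 2.21-fold and LGR6, a receptor for R-spondins, 2.37-fold higher in the intermediate layer. WNT9A, a ligand known from the mouse interzone, was not well above background on any of the 6 arrays. The secreted inhibitor WIF1 was at least 20.1-fold higher in the outer layer, at a level of -3.69 there, and not well above background in the cartilage. FRZB, another secreted inhibitor, had -7.61 and -5.41, 4.58-fold higher in the outer layer, with the sign turned after normexp. The transducers split: DVL3 was 8.60-fold and TCF7L2 5.37-fold higher in the intermediate layer, while DVL2 was 9.75-fold higher in the outer layer. Of 13 transducers and targets on the array, 3 were above background in the outer layer only and none in the intermediate layer only. Over all genes on the array these shares were 11.7% and 6.02%. The 3 were GSK3B, LEF1 and DVL1, with bounds of 4.20-fold, 4.08-fold and 3.70-fold. CTNNB1, which encodes beta-catenin, had -1.50 and -2.34, and its 5 probes gave between 0.16 and 0.84.

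Other signals had few measured members. Of the 3 Notch genes compared, the target HES1 had -1.30 and -3.81, a gap of 5.71-fold, while the ligand JAG1 had -7.81 and -4.25, 11.8-fold higher in the outer layer. The receptor NOTCH1 had -5.25 and -5.39. The retinoic acid binding proteins CRABP1 (0.37 and -1.31) and CRABP2 (0.43 and -0.91) favoured the intermediate layer by 3.21-fold and 2.54-fold. IGF2, a fetal growth factor, had -0.85 in the intermediate layer, -4.57 in the outer layer and -2.53 in the cartilage, with 2 probes at 2.77 and 3.72. PDGFRA, a receptor of connective tissue cells, had -3.56 and -7.50, a 15.3-fold difference of 3.93 ± 0.23, and was not well above background in the cartilage. IGF1R went the other way, 2.53-fold higher in the outer layer.

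Several genes of tendon, fascia and perichondrium were higher in the intermediate layer, and others in the outer layer. Of 13 genes of this list measured, 3 passed 4-fold towards the intermediate layer and none towards the outer layer, against 10.8% and 7.24% of all genes. At 2-fold, 5 passed towards the intermediate and 3 towards the outer layer, against 25.6% and 17.7%. The list median of 0.58 fell on either side of the median of all genes across the alternatives. Of the 20 genes of this list on the array, a further 3 were above background in the outer layer only, with bounds between 1.20-fold and 2.01-fold. None was in the intermediate layer only. Over all genes on the array these shares were 11.7% and 6.02%. DCN, the collagen-binding proteoglycan decorin, had -3.18 and -6.70 with its 2 probes at 3.32 and 3.52, and was not well above background in the cartilage. THBS2, a matrix glycoprotein, had -1.35 and -3.91 and 4 probes between 2.55 and 2.69. EYA2, a transcriptional co-activator, had -4.64 and -8.64 by 1 probe. In the opposite direction, THBS4, a tendon glycoprotein, had -2.26 and -0.55 with 3 probes between -1.83 and -1.71, and FBLN1 was 3.69-fold higher in the outer layer. SCX, the tendon transcription factor, was well above background in the outer layer only, at least 1.45-fold higher and so close to the limit of measurement. TNC, or tenascin C, had -0.37 and 0.73, and its 5 measured probes were all lower in the intermediate layer, by 2.13-fold for the reported one.

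PODN, a small leucine-rich proteoglycan like decorin, had levels of -2.66 in the intermediate and -7.55 in the outer layer, a 29.6-fold difference by 1 probe. Apart from PODN and DCN, the 7 members of that family that were measured, LUM, OGN and ASPN among them, lay within 2-fold. LUM had 1.12 and 0.97 and changed sign under 3 of 9 alternatives, and ASPN had -0.20 and -1.16 and was not well above background in the cartilage. The abundant fibrillar collagens were close between the layers: COL1A2 had 4.63 and 4.10 with 9 probes between 0.41 and 0.77, and COL1A1 had 3.44 and 2.98, with the sign turned under 2 and 1 of the 9 alternatives. COL3A1 depended on the probe. Its probes at bases 4436 and 4496 gave 0.57 and 0.53, and 5 overlapping probes at bases 274 to 278, which the annotation places in another transcript record, gave between 3.66 and 3.82. COL8A2 was 4.80-fold and COL24A1 3.41-fold higher in the intermediate layer. Among elastic fibre genes EMILIN1, with -6.18 in the intermediate layer, was 9.08-fold higher in the outer layer, and MFAP4, with -1.82 and -3.83, was 4.03-fold higher in the intermediate layer. CCN2, a secreted matrix regulator, had -7.23 and -4.51 with 5 probes between -3.03 and -2.71, although the difference fell to -0.09 under normexp.

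**Figure D3:**
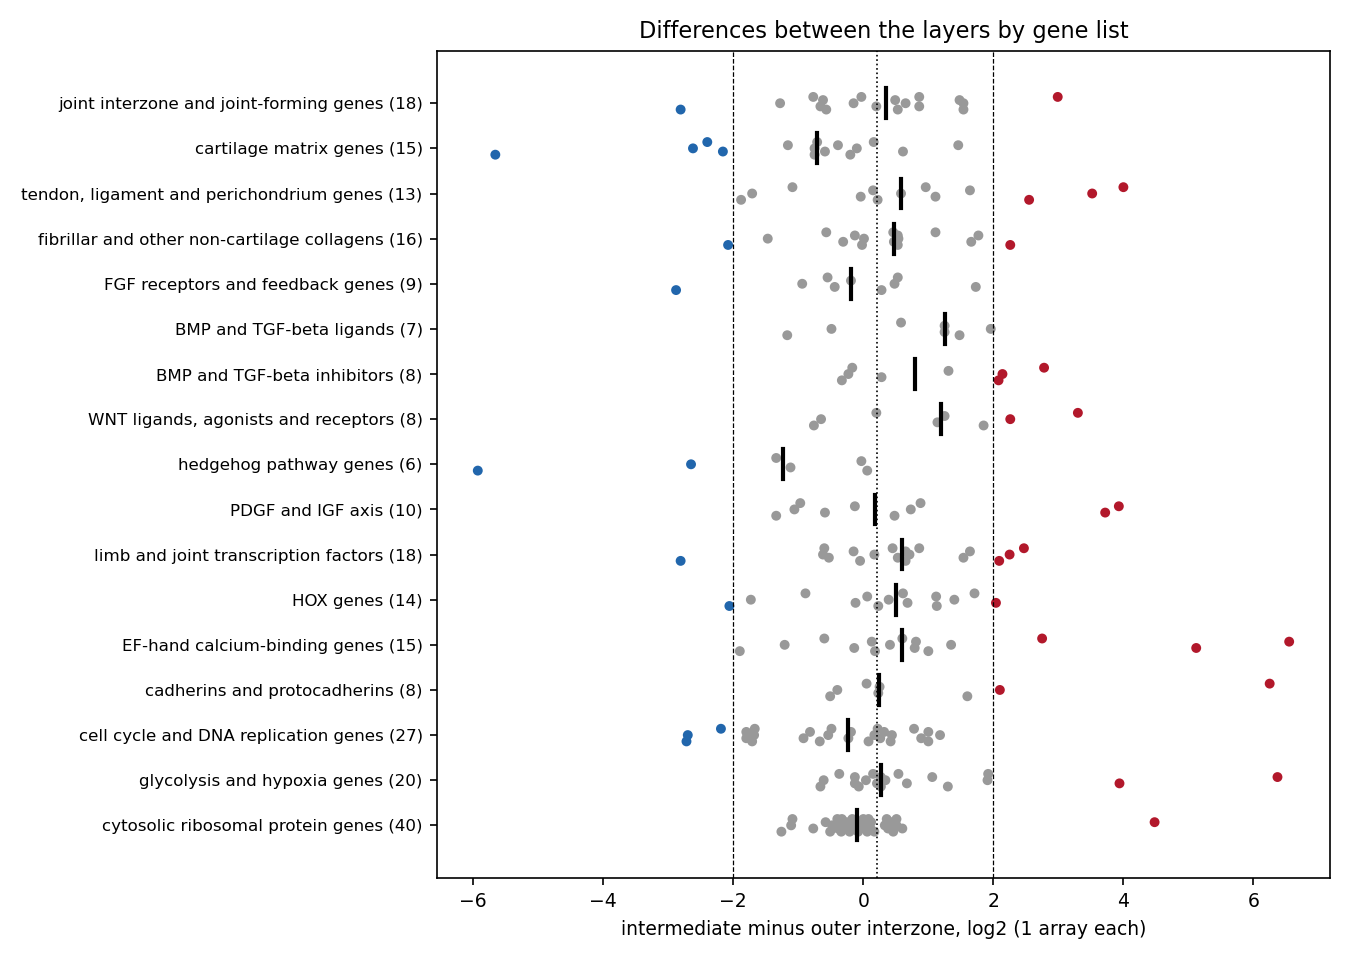
Difference between the layers in log2 units, intermediate minus outer, for the measured members of 17 gene lists, with 1 point per gene and 1 array per layer. Numbers in brackets count the measured members, thick bars are list medians, the dotted line is the median of all 4336 genes (0.21), and dashed lines mark 4-fold. The medians of the cartilage matrix (-0.71) and hedgehog lists (-1.23) lie to the left of the dotted line, and those of BMP and TGF-beta ligands (1.25) and WNT ligands and receptors (1.19) to the right. They also do so under quantile normalization, normexp and the mean over probes, the alternatives that could change this.

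Limb transcription factors had levels on both sides. PRRX2, a homeobox factor of limb mesenchyme, had -2.48 and -4.95 and was 5.53-fold higher in the intermediate layer, ISL1, a factor of early hindlimb, was 4.76-fold and PBX2, a HOX partner, 4.27-fold higher there. BARX2, a homeobox gene of joints, had -1.77, -3.32 and -8.75 across the intermediate layer, outer layer and cartilage, and MKX, a tendon factor, had -2.74, -4.38 and -8.42. PRRX1, with -0.31 and -0.48, changed sign under 3 of 9 alternatives. The hindlimb factors TBX4 and PITX1 were well above background in the outer layer only, with bounds of 6.98-fold and 1.67-fold. Of 30 HOX genes on the array 14 were measured, 1 of them at least 4-fold higher in each layer, a share near the 10.8% and 7.24% of all genes. HOXB3 was 4.12-fold higher in the intermediate layer, and HOXA11, 4.16-fold higher in the outer layer, changed sign under normexp. HOXA9, with 4 probes between 1.40 and 1.78, and HOXC9, with 5 between 1.04 and 1.20, were both higher in the intermediate layer. HOXA10 had 0.49 and 0.61. HOXD8 was at least 22.4-fold and HOXD10 at least 5.77-fold higher in the outer layer, the latter at -5.49 there.

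Cell surface and calcium-binding genes held some of the widest gaps. CDH10, a cadherin known from the nervous system, had -0.93 in the intermediate layer, -7.18 in the outer layer and -2.12 in the cartilage, 76.1-fold, and CDH18, of the same group, had a bound of 146-fold in the same direction. CDH11, the cadherin of loose mesenchyme and synovium, had -0.63 and -0.87 and changed sign under 2 of 9 alternatives. PCDH17 was above background in the intermediate layer only, with a bound of 20.6-fold, and CDH15, the muscle cadherin, in the outer layer only, with a bound of 18.1-fold. Besides CALB2, the EF-hand genes CALM3, which encodes a calmodulin, and NUCB1 showed gaps of 34.7-fold and 6.72-fold towards the intermediate layer, and CALML4, with 3 probes between -1.99 and -1.76, was higher in the outer layer. PVALB, or parvalbumin, had -3.71 and -5.07. SEMA3B, a secreted guidance cue, was above background in the intermediate layer only, with a bound of 195-fold, and so was the guidance receptor EPHA3, with 27.4-fold. SEMA3A was 9.30-fold higher in the intermediate layer. SLIT3, a ligand of ROBO receptors, was 7.64-fold higher in the outer layer, and ROBO2, with 5 probes between 1.09 and 1.20, was higher in the intermediate layer.

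Among proteases and their inhibitors, TIMP3, a matrix-bound inhibitor of metalloproteinases, had -2.59 in the intermediate layer, -6.82 in the outer layer and -3.38 in the cartilage. Its 5 probes gave between 4.23 and 4.79, and the reported one was 18.7-fold higher in the intermediate layer. MMP2, a gelatinase, had -1.30 and -3.06 with 2 probes at 1.76 and 3.19, and the aggrecanase ADAMTS5 was 4.29-fold higher in the intermediate layer. RECK, a membrane inhibitor of these enzymes, had -5.92 and -3.98 and was 3.84-fold higher in the outer layer. ADAMTS3, a procollagen processing enzyme, was at least 12.2-fold higher in the outer layer. MMP14 had -0.28 and 0.05, and its 2 probes disagreed in direction.

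Genes of the cell cycle lay towards the outer layer. Of 27 measured, 8 were at least 2-fold higher in the outer layer and 3 in the intermediate layer, against 17.7% and 25.6% of all genes. Of these 3 of the 8 and none of the 3 passed 4-fold. The list median was -0.23, which is 0.44 below that of all genes, and between 0.40 and 0.52 below it over the 9 alternatives, with its own sign turned under 1 of them. UBE2C, which acts at the exit from mitosis, had -4.00 in the intermediate, -1.30 in the outer layer and -2.13 in the cartilage, with 5 probes between -2.70 and -2.53. NUSAP1, a spindle protein, had -4.56 and -1.84, RRM2, a subunit of ribonucleotide reductase, -4.25 and -2.06, and the proliferation marker MKI67 -3.14 and -1.34, which is 3.48-fold higher in the outer layer. AURKB, a mitotic kinase, was at least 15.8-fold higher in the outer layer. The replication licensing genes MCM6 (0.04 and -0.38) and MCM7 (0.59 and -0.41) and the chromatin protein HMGB2 (1.31 and 1.98) differed less, and CDT1 and CCNE2 were above background in the intermediate layer only, with bounds of 24.1-fold and 24.3-fold. Among cell cycle inhibitors RBL2, a relative of the retinoblastoma protein, was 6.14-fold and CDKN1A at least 14.5-fold higher in the intermediate layer, GADD45B at least 24.3-fold and GADD45A at least 10.2-fold higher in the outer layer. CDKN1C, with -0.86 and -0.69, was close between the layers.

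Genes of glycolysis and hypoxia held some large differences towards the intermediate layer. EGLN2 and EGLN1, prolyl hydroxylases that mark HIF for degradation when oxygen is present, were higher in the intermediate layer by 82.7-fold and 15.4-fold, each by 1 probe. Their lowest differences over the 9 alternatives were 3.60 and 1.55 on the log2 scale. Also higher there were P4HA2, a collagen prolyl hydroxylase, by 3.79-fold, and HK1, a hexokinase, with 5 probes between 1.30 and 1.70. Of 27 genes of this list on the array, 2 were above background in the intermediate layer only and 1 in the outer layer only, against 6.02% and 11.7% of all genes. PFKP, a phosphofructokinase, was 1 of the 2, at least 97.5-fold higher in the intermediate layer. None of the 20 measured members was 2-fold higher in the outer layer, against 17.7% of all genes, and the list median of 0.27 was 0.06 above that of all genes, falling on either side of it across alternatives. ALDOA (0.87 and 0.60) and LDHA (0.70 and 0.36) changed sign under 2 and 1 of 9 alternatives. VEGFA, an angiogenic factor induced by low oxygen, was above background in the outer layer only, at least 5.51-fold higher. The immediate-early genes FOS (-5.42 and -5.78) and JUNB (1.46 and 0.37) were not lower in the intermediate layer under any alternative, and KLF4 was 2.74-fold higher there.

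Genes that most cells use were close, with exceptions. Of 40 ribosomal protein genes measured 36 lay within 2-fold. Their median was -0.09, which is 0.30 below that of all genes and stayed below it under every alternative that could change this. RPS6 had 4.14 and 4.06 and changed sign under 4 of 9 alternatives. RPS10, with -2.03 and -6.51, was 22.3-fold higher in the intermediate layer by 1 probe. Among 24 other ubiquitous genes measured 20 lay within 2-fold. ACTB had 2.44 in the intermediate layer and differed by 0.14, with the sign turned under 3 of 9 alternatives, and GUSB had -1.09 and 0.23 with 7 probes between -1.44 and -0.26, while SDHA, a mitochondrial enzyme subunit, had 0.18 and -2.92, a gap of 8.52-fold.

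The largest measured differences towards the intermediate layer, after CALB2, PJA1, EGLN2 and CDH10, were those of AOX4, PLSCR3, USP5, FANCG, MRPS18A, ARMH3, EIF2B4, ZNF184, STARD10, PHF5A and PDLIM1. They ran from 63.8-fold for AOX4, an aldehyde oxidase, to 42.8-fold for PDLIM1. PJA1, a ubiquitin ligase, led with 112-fold, at levels of -1.70 and -8.50, a log2 difference of 6.81 that fell to 3.48 under the alternative that shrank it most. Of these 15 genes PHF5A, a splicing factor, alone had 2 measured probes, at 5.37 and 5.50. All 15 stayed at least 4-fold higher in the intermediate layer under all 9 alternatives. Towards the outer layer, GLI3 and CYTL1 were followed by NUP35, EMC9, PRPF31, RPP40, OGFOD1, PARM1, SELENOH, DDOST, PAK3, UBE2G1, TOB1, ZDHHC16 and POLI, from 27.1-fold for NUP35, a nuclear pore subunit, to 19.4-fold for POLI. Of these 15 genes only GLI3, CYTL1, DDOST and POLI stayed at least 4-fold higher in the outer layer under all 9 alternatives. TOB1, an antiproliferative protein, had 2 probes at -4.29 and -4.26 and POLI, a DNA polymerase, 2 at -4.27 and -4.16, but the 2 of RPP40 gave -4.55 and -1.98.

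Among genes seen in 1 layer only, the largest bounds towards the intermediate layer were those of SLC41A3, a magnesium transporter, at least 225-fold, SEMA3B, PMM1 at least 169-fold, TCEAL7, ILVBL, ATP2B4, CDH18, ORAI1, a calcium channel, at least 139-fold, AMIGO2 and FNDC1 at least 122-fold. Towards the outer layer they were those of NALF1 and ACSS1, both at least 95.3-fold, LPCAT3, FUCA2, SDC4, a heparan sulfate proteoglycan, at least 68.0-fold, TOMM5, ZKSCAN2, TTC27, GTF2F1 and KRT17 at least 58.4-fold. Bounds of 4-fold or more were held by 612 genes in the intermediate and 641 in the outer direction. KRT17 is a keratin of epithelia.

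Low signal and, to a lesser degree, single probes went with more large differences. With genes split into 4 bins of equal size by the mean level of the 2 layers, from lowest to highest, 22.6%, 28.8%, 16.3% and 4.61% of genes were at least 4-fold apart, and the median difference was 0.53 in the lowest bin and 0.09 in the highest. Of 784 genes at least 4-fold apart, 554 rested on 1 measured probe and 230 on several, of which 219 had all probes on one side. Over all genes measured in both layers, 2868 had 1 measured probe and 1468 had several. At least 4-fold apart were 19.3% and 15.7% of these. For some of the 219, such as CYTL1 and MATN1, the probes cover nearly the same bases. For 686 genes 2 probes of 1 transcript shared no base. Across these genes the 2 differences correlated with a Pearson r of 0.65, a description over genes that share the same 2 arrays and are not independent replicates. The 2 probes lay within 2-fold of each other for 495 genes (72.2%), with a median gap of 0.51. Both probes lay on one side of 0 for 511 of the 686 genes. Of 96 of these genes that were at least 4-fold apart by the mean of both probes, 61 had both past 4-fold. On the same side were 94 of the 96, which the choice by the mean nearly ensures. Many of these pairs cover neighbouring stretches of the transcript, such as those of FGFR2 and FGF10, which start 60 and 79 bases apart. The 2 probes of GLI1, which disagree, start 1879 bases apart. So the 2 probes shared a direction for most of the 686 genes, and a size past 4-fold for 61 of the 96. This compares probes on 1 pair of amplified samples and carries nothing on other animals.

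**Figure D4:**
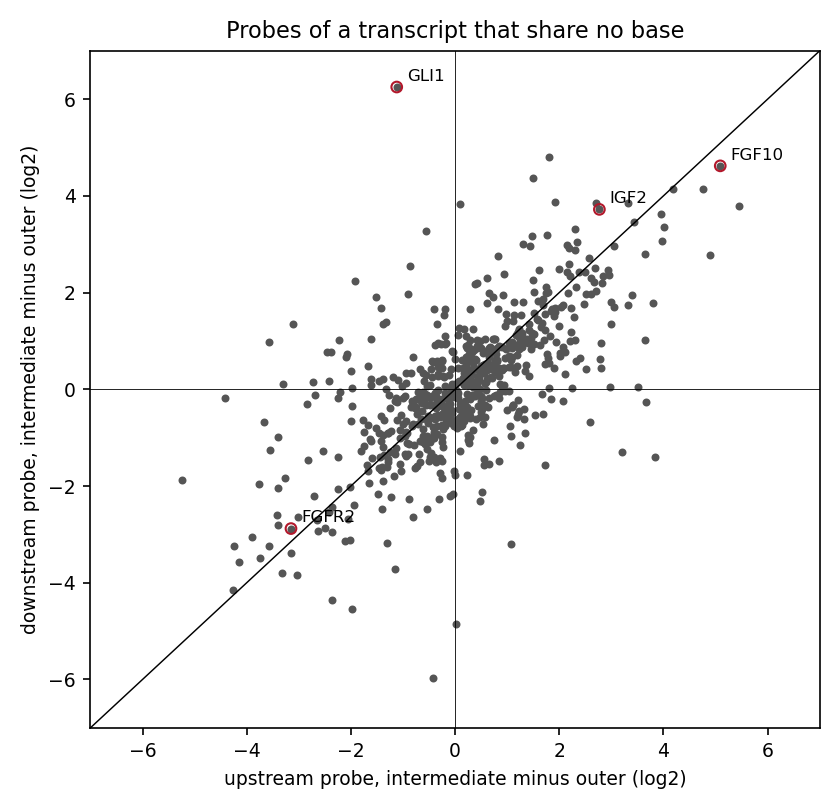
Difference between the layers (log2, intermediate minus outer) by the upstream probe on the x axis and the downstream probe on the y axis, for 686 genes with 2 probes of 1 transcript that share no base. The solid diagonal marks equal differences. FGF10, IGF2 and FGFR2, whose probes start 79, 80 and 60 bases apart, lie near the diagonal. GLI1, at -1.12 and 6.25 with probes that start 1879 bases apart, lies far from it.

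Set beside the third fetal array, the 2 layers were about as far from each other as the outer layer was from the cartilage. Over 3929 genes measured on all 3 arrays, the median absolute difference was 0.81 between the layers, 0.84 between the outer layer and the cartilage and 0.97 between the intermediate layer and the cartilage. At least 4-fold apart were 17.3%, 16.9% and 20.3%. These comparisons share arrays and none of their differences was tested.

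Markers of other cell types were present at some level in both layers, and their part in the differences above was not tested. Of 25 skeletal muscle genes on the array 8 were above background in the intermediate and 9 in the outer layer, with linear levels that summed to 1.15 and 0.618. MYL1, a fast myosin light chain, was 25.7-fold higher in the intermediate layer by 1 probe and TPM2 5.07-fold by the reported one of 3 probes, while MYF5, a factor of muscle precursors, was at least 4.09-fold higher in the outer layer and ACTA1 had -1.17 and -1.45. Of 12 endothelial genes 4 and 5 were above background, summing to 0.0990 and 0.0376, with PLVAP at -4.13 and -7.34. Of 7 smooth muscle and pericyte genes 4 and 3 were above background, summing to 0.315 and 0.215, and MCAM had -2.43 and -7.46 with 5 probes between 5.01 and 5.59. Of 12 macrophage and leukocyte genes 6 were above background in each layer, summing to 58.0 and 31.5. Without PTPRC, whose probes at bases 4009 to 4023 were bright on both arrays while its 9 probes further upstream were not above background on either, the sums were 0.526 and 0.247. AIF1, a macrophage gene, was 7.68-fold higher in the intermediate layer by the reported one of 4 probes. Of 16 epithelial genes 1 was above background in the intermediate and 3 in the outer layer, with sums of 0.00692 and 0.249, nearly all of the latter from KRT17. Of 9 Schwann cell genes none was above background in the intermediate and 1 in the outer layer, and of 11 neuronal genes 2 in each, summing to 0.0887 and 0.284. Of 8 red blood cell genes HBB alone was above background. Its probe at base 233 was 13.5-fold higher in the intermediate layer, and its other 5 probes were above background in the outer layer only.

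**Figure D5:**
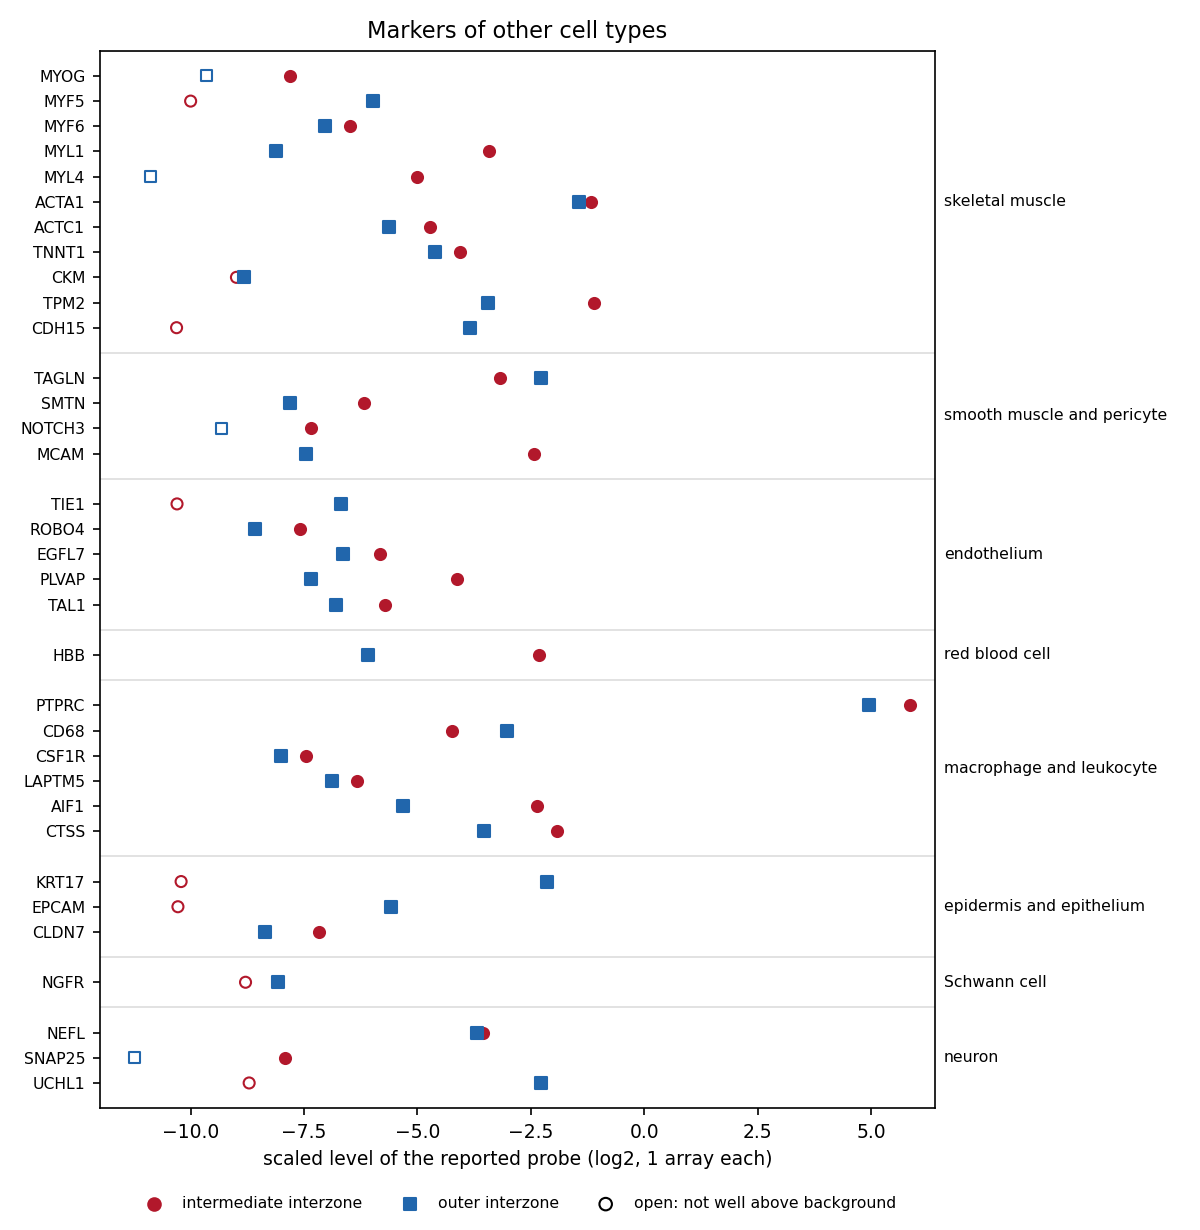
Scaled log2 level of markers of 8 other cell types that were above background in either layer, with circles for the intermediate and squares for the outer layer, 1 array each. Open symbols were not well above background. Most muscle, vessel and leukocyte markers measured in both layers, such as MYL1, MCAM, PLVAP and AIF1, lie higher in the intermediate layer, with TAGLN and CD68 higher in the outer layer, and KRT17 and EPCAM are filled in the outer layer only.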

How the data were processed

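RNA of laser-captured cells was amplified with SuperAmp, a PCR method, labelled with Cy3 and hybridised to Agilent horse arrays, per the labels' protocols. The authors deposited the scanner output, which per the file headers came from version 10.7.3.1 of Agilent Feature Extraction. The deposited processed signal is a linear intensity from which background had been subtracted. The deposited series table holds each array's processed signal as a ratio to that array's median, found by setting both side by side, and served as an alternative. The 3 fetal arrays shared 1 slide, per the file headers.

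Control and outlier spots were left out and spots of 1 probe averaged. Values were converted from deposited intensities to log2 and scaled as the report states. Probes were named from the files' annotation and a RefSeq gene table for the horse assembly TB-T2T, whose coordinates were not used: 24084 of 43603 probes gave 13743 genes. Of several probes for a gene, the one with the highest mean level over the 6 arrays was reported. The linear levels that were summed are 2 raised to the scaled level.

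With 1 array per layer no test was run. A call was 4-fold. The script was tested on simulated data. Named genes were, in each direction, the 15 largest measured differences and 10 largest bounds, the 4 markers, and in each of 46 lists up to 5 members by difference, 3 by bound and 3 by level, beside the markers of joint tissue and cartilage. NOG, CHRD, WNT9A and COL11A1 were named after their values were seen. A gene that this rule names is not reported here. The members and lists were chosen with earlier results of these data known. Alternatives were 9 scalings, background corrections or summaries, and for counts 5 more filters or thresholds. Python 3.11.15, R 4.3.3 and limma 3.58.1 were used. Array number limits the precision.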

Additional observations from a re-analysis of the deposited data

How the results depend on the processing

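The counts of genes at least 4-fold apart moved with the setting. In the intermediate and outer direction, in that order, they were 470 and 314 as reported, 352 and 17 after normexp on the mean and background signals, and 94 and 119 after normexp with the differences centred on their median, which kept 24.6% of the genes called. Without a filter on dim probes they were 1639 and 1457, and with signals above 4 times the lowest in both layers 258 and 123. At 2-fold they were 1109 and 768 and at 8-fold 192 and 106. The share of calls in the intermediate direction was 59.9% as reported, 45.1% with the 50th percentile, 51.2% with differences centred on their median, 95.4% and 44.1% in the normexp settings, and 50.0% with 378 genes each way when differences were centred within 4 bins of mean signal, a setting chosen after seeing the data. The authors' values gave the reported counts, which was fixed in advance, because they are the processed signal divided by a constant of each array that the scaling removes. With each probe's own signal as the floor, bounds of 4-fold or more numbered 1895 in place of 1253, and 1117 in place of 641 in the outer direction. After normexp the differences of MATN1 (0.35), COL13A1 (0.25), THBS1 (0.20), FRZB (0.51), SMO (0.25) and HOXA11 (0.26) had the other sign. Of 2313 alternative values for 257 named differences, 2002 moved by less than the pooled spread between probes of a gene (0.56), 305 moved by more, and so did those 6. Besides these 6, each past 4-fold as reported, another 64 of the named differences, all under 4-fold as reported, took the other sign under 1 or more alternatives, 70 in all. Of 369 alternative medians for 41 lists, 336 moved by less than that spread and 33 by more. For genes and lists alike, other percentiles, plain centring on the median and the authors' values shift all differences by a constant. The largest of these shifts was -0.34, with the 50th percentile, so these settings could not move a value by that spread. Over the same 4336 genes the overall median shifted by up to 0.58, under normexp. The cause of these shifts was not tested. No paired analysis was possible because each layer has 1 array.

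The limits are those of 1 amplified sample per layer. Low signals carry most large differences, the animal behind each layer is not known, and neither the spot error nor the spread between probes measures biological variation.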
